A study of Mus musculus with 32 samples.

Results

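The mitosis genes are a set of 44 genes whose products drive a cell from the end of G2 through chromosome segregation to the final cut between daughter cells. They were chosen by name, and all 44 were found among 21951 protein-coding genes of GENCODE M21. Peaks were assigned to a gene when any of their bases lay within 5 kb of any of its transcription start sites (TSSs). Each gene then had, in each library, a call (at least 1 such peak) and a value, the list percentile rank of its highest peak. This rank places the fold enrichment of the peak among all peaks of the same list, with 100 for the highest. The comparison genes were 9693 further protein-coding genes, each with H3K27ac no more than 1 kb from a TSS in the 2 libraries of 0 h.

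Cyclin-dependent kinase 1 with its B-type cyclins starts mitosis, and the anaphase-promoting complex, bound to Cdc20, ends it by marking the cyclins and securin for destruction. The genes for these proteins are transcribed mainly in G2 and M. Their promoters are known for CCAAT words, bound by NF-Y, and for the cell cycle genes homology region (CHR), a TTTGAA or TTCGAA word bound by the MuvB core of the DREAM and MYBL2 complexes. Ikaros (IKZF1) is a zinc finger protein of lymphoid cells that binds GGGAA words and associates with NuRD, of which CHD4 is the remodelling ATPase. Pre-B cells cycle rapidly, and Ikaros is known to restrain their growth as they differentiate.

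The data were ChIP-seq peak lists from B3, a mouse pre-B cell line. A retrovirus had brought in Ikaros fused to an HA tag and to ERt2. This domain is meant to keep the protein out of the nucleus until its ligand is given. Every group carried this construct. Cells were untreated (0 h) or received 500 nM 4-hydroxytamoxifen (4-OHT) for 30 min, 1 h or 2 h, and HA-Ikaros, CHD4 and H3K27ac, the histone acetylation found at active regulatory DNA, had 2 libraries each at every time, 24 lists in all. The samples asked how binding and acetylation change once Ikaros enters the nucleus. An untransduced line given 4-OHT was not analysed here, so effects of the ligand and of Ikaros cannot be told apart, and chromatin came from bulk cells, so weak binding in many cells and strong binding in few, or in cells of 1 phase of the cycle, cannot be told apart.

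The Ikaros lists held 5373 to 14874 peaks, the CHD4 lists 2488 to 9593 and the H3K27ac lists 21468 to 33664. The 0 h Ikaros lists, from cells without ligand, held 7822 and 9527 peaks. Whether these reflect Ikaros already in the nucleus or background was not tested. Some replicates stood apart in length, with 9181 and 5373 Ikaros peaks at 30 min, 2488 and 6000 CHD4 peaks at 0 h, and 5523 and 9593 CHD4 peaks at 2 h. Recovered coverage was 3.59 and 3.13 fragments per base in the 0 h Ikaros libraries, above the 1.98 to 2.85 of the later ones, and 3.75 to 4.34 in the H3K27ac libraries. Of 15 pre-B genes, 14 carried promoter H3K27ac in both 0 h lists (not Rag1), against 2 of 9 T cell genes (Cd3d and Lck), 0 of 10 myeloid genes and 3 of 10 erythroid genes (Klf1, Hbb-bt and Hbb-bs). Nothing in the labels says that replicates came from separate cultures, so the spread between them may be technical.

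RefSeq promoter windows of GRCm38.p6, from 250 bases before to 50 after each start, were found for 35 of the 44 genes, 38 windows in all. CCAAT on either strand lay in 78.9% of these windows, against 38.1% of 9773 windows of comparison genes and 37.4% of all 32851 windows. TTTGAA or TTCGAA lay in 81.6%, against 14.3% of the comparison windows and 19.2% of all. Both kinds of word stood together in 73.7% of the mitosis gene windows, 5.77% of the comparison windows and 7.52% of all. GGGAA, the Ikaros core word, was in 55.3%, below the 65% of comparison windows and the 62.7% of all windows. A short word also occurs without a factor. The authors counted the shorter words GGAA and GGGA as Ikaros motifs, and shares of these were not taken here. TTCGAA is its own reverse complement, and the last T of CCAAT can be the first of TTTGAA. The promoters of Cdk1, Cdc20, Ccnb1, Top2a and Mki67, picked from the genes named below, are printed here 5′ to 3′. They show exon-free bases before the start. CCAAT and the CHR words are in capitals on whichever strand they lie (ATTGG and TTCAAA are the reverse complements).
Cdk1 promoter, chr10:69352939-69353162, minus strand: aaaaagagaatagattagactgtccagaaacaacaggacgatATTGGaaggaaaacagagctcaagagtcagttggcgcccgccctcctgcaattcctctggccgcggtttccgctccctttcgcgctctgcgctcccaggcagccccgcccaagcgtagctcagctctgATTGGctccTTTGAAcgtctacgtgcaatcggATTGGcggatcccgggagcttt
Cdc20 promoter, chr4:118437353-118437593, minus strand: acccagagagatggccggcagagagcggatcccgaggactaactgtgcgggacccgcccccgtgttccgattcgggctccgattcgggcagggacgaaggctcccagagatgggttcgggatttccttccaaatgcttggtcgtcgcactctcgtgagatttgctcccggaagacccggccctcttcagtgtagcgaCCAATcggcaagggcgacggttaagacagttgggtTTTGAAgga
Ccnb1 promoter, chr13:100786571-100786736, minus strand: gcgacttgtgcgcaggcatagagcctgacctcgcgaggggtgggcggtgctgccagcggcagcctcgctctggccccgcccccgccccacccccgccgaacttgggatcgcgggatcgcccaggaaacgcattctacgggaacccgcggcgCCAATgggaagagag
Top2a promoter, chr11:99024190-99024439, minus strand: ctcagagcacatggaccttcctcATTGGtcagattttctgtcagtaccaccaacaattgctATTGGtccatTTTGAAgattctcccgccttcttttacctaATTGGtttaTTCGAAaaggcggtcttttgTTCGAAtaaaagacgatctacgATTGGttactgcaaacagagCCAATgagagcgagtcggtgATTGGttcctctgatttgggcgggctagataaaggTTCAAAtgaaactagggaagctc
Mki67 promoter, chr7:135716380-135716629, minus strand: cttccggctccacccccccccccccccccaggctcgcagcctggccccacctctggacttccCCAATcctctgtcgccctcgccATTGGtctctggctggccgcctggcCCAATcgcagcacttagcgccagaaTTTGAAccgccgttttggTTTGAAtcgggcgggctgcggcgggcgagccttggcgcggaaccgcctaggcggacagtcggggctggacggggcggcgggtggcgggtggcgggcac
The last base shown lies 26 bases before the RefSeq start for Cdk1, 9 for Cdc20 and 84 for Ccnb1, and next to it for Top2a and Mki67. Cdk1, Cdc20, Top2a and Mki67 show both kinds of word, while Ccnb1 shows CCAAT and neither CHR word.

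**Figure D1:**
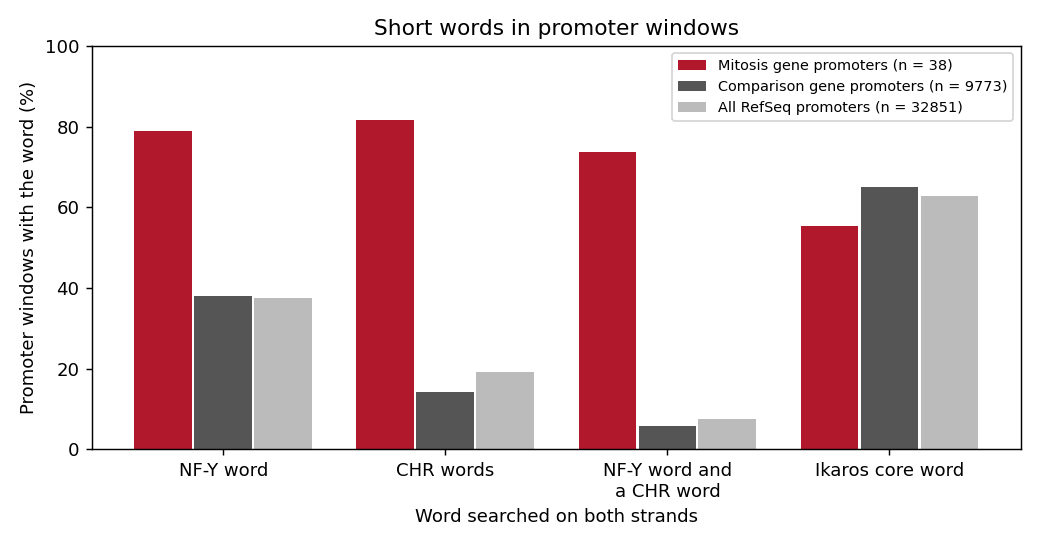
Percent of RefSeq promoter windows (250 bases before to 50 after a start) that hold each word on either strand, for mitosis genes, comparison genes and all windows. Both words together were in 73.7% of mitosis gene windows and 5.77% of comparison windows, while the GGGAA core was in 55.3% and 65%.

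The words were also counted by whether Ikaros was called in both 2 h libraries, and some of the remaining genes were called in 1 of these or at other times. Among windows of genes called for Ikaros in both 2 h libraries, 79.2% of 24 held CCAAT and 83.3% held a CHR word, and among the other 14 windows both shares were 78.6%. GGGAA was in 62.5% and 42.9% of these windows, which is 15 of 24 and 6 of 14. These shares are descriptions and were not tested. The genes without a CHR word in a window were Birc5, Ccnb1, Cenpe, Mad2l1, Ncaph, Nuf2 and Pttg1.

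Ikaros peaks were found at more mitosis genes at 2 h than before 4-OHT, as they were at the comparison genes. The 2 libraries of 0 h called 15 and 16 of the 44, those of 30 min 18 and 9, those of 1 h 25 and 25, and those of 2 h 30 and 33. The shares of comparison genes called were 39.2% and 42.9% at 0 h, 46.5% and 24.1% at 30 min, 61.5% and 66.6% at 1 h, and 64.1% and 66.3% at 2 h. The share of mitosis genes was thus 3.69 to 9.83 percentage points under that of the comparison genes in the 6 earlier libraries and 4.11 and 8.65 points over it in the 2 h libraries. Among calls shared by both 2 h lists the direction turned when the lists were cut to equal size. In the 0 h and 2 h libraries the counts did not overlap, but with 2 libraries against 2 an exact two-sided permutation test cannot go below p = 0.333.

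**Figure D2:**
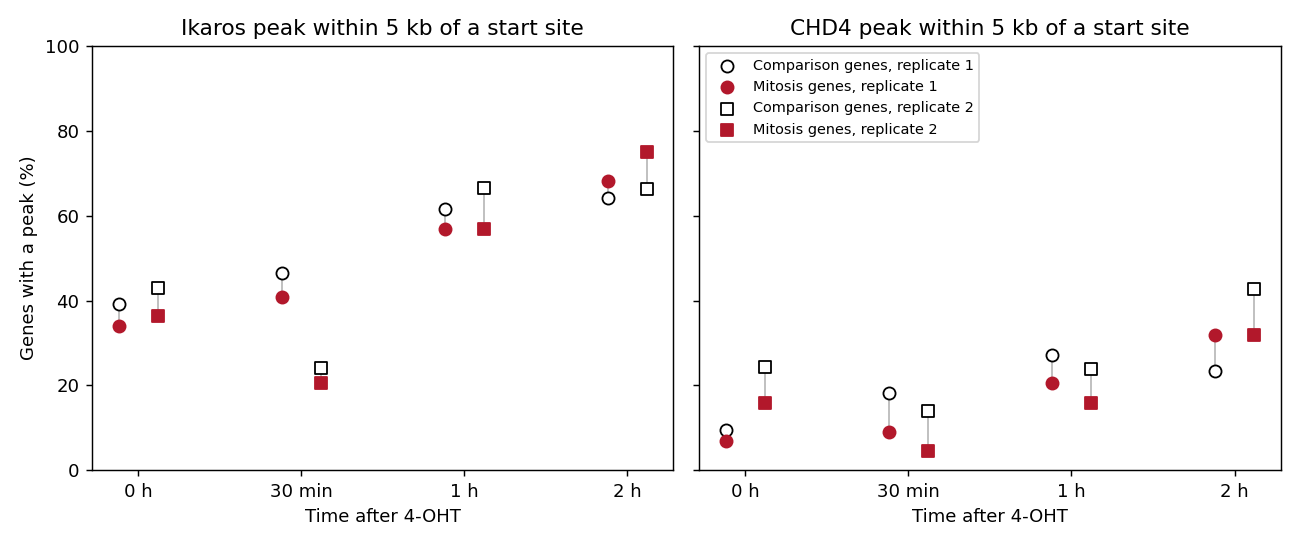
Percent of genes with a peak within 5 kb of a TSS in each library, by time after 4-OHT, for Ikaros on the left and CHD4 on the right. Filled points are the 44 mitosis genes and open points the 9693 comparison genes (circles replicate 1, squares replicate 2), and a grey line joins the pair from 1 library. Both groups had more Ikaros peaks at 1 h and 2 h than at 0 h, and the mitosis genes stood above the comparison genes in both 2 h Ikaros libraries.

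Calls shared by both replicates were fewer. Ikaros was called in both lists at 11 mitosis genes at 0 h (32.3% of comparison genes), 6 at 30 min (21.2%), 19 at 1 h (53.9%) and 27 at 2 h (54.4%). At 2 h that was 61.4% of the 44. Of the 27, the highest peaks of the replicates overlapped at 25 and lay apart at Cenpa and Ttk. Gained genes, called in both 2 h lists and neither 0 h list, numbered 9, which is 20.5% against 14% of comparison genes. They were Cdk1, Mad2l1, Cenpa, Cenpe, Spc25, Kif20a, Top2a, Smc2 and Smc4. Prc1 was the 1 gene lost, against 0.836% of comparison genes. At 30 min 2 genes had been gained (1.51% of comparison genes), Cdk1 and Kif20a, and 2 lost (3.99% of comparison genes), Kif2c and Ncapg, in the time with the shortest list. At 1 h 4 had been gained (13.1% of comparison genes), Cdk1, Mad2l1, Kif11 and Kif20a, and 0 lost (0.743% of comparison genes). In lists cut to equal size, 9 genes were called in both 2 h lists, so the share of mitosis genes (20.5%) was under that of comparison genes (22.5%) and the direction turned. There 5 genes were gained (11.4% against 5.55%). Without 0 h replicate 2 the gained genes numbered 14 (31.8% against 20.7% of comparison genes), and without 2 h replicate 1 they numbered 15 (34.1% against 22.1%). A missing call says only that no peak passed the cutoff there.

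Other genes of cell division, listed by name, were counted at 2 h beside the comparison genes, of which 54.4% were called in both lists and 14% gained. Of 118 further mitosis genes, 117 had promoter H3K27ac, and Ikaros was called in both 2 h lists at 65 of these (55.6%) and gained at 22 (18.8%). Of 49 DNA replication genes, 30 were called (61.2%) and 10 gained (20.4%). No gene of either list was lost.

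**Figure D3:**
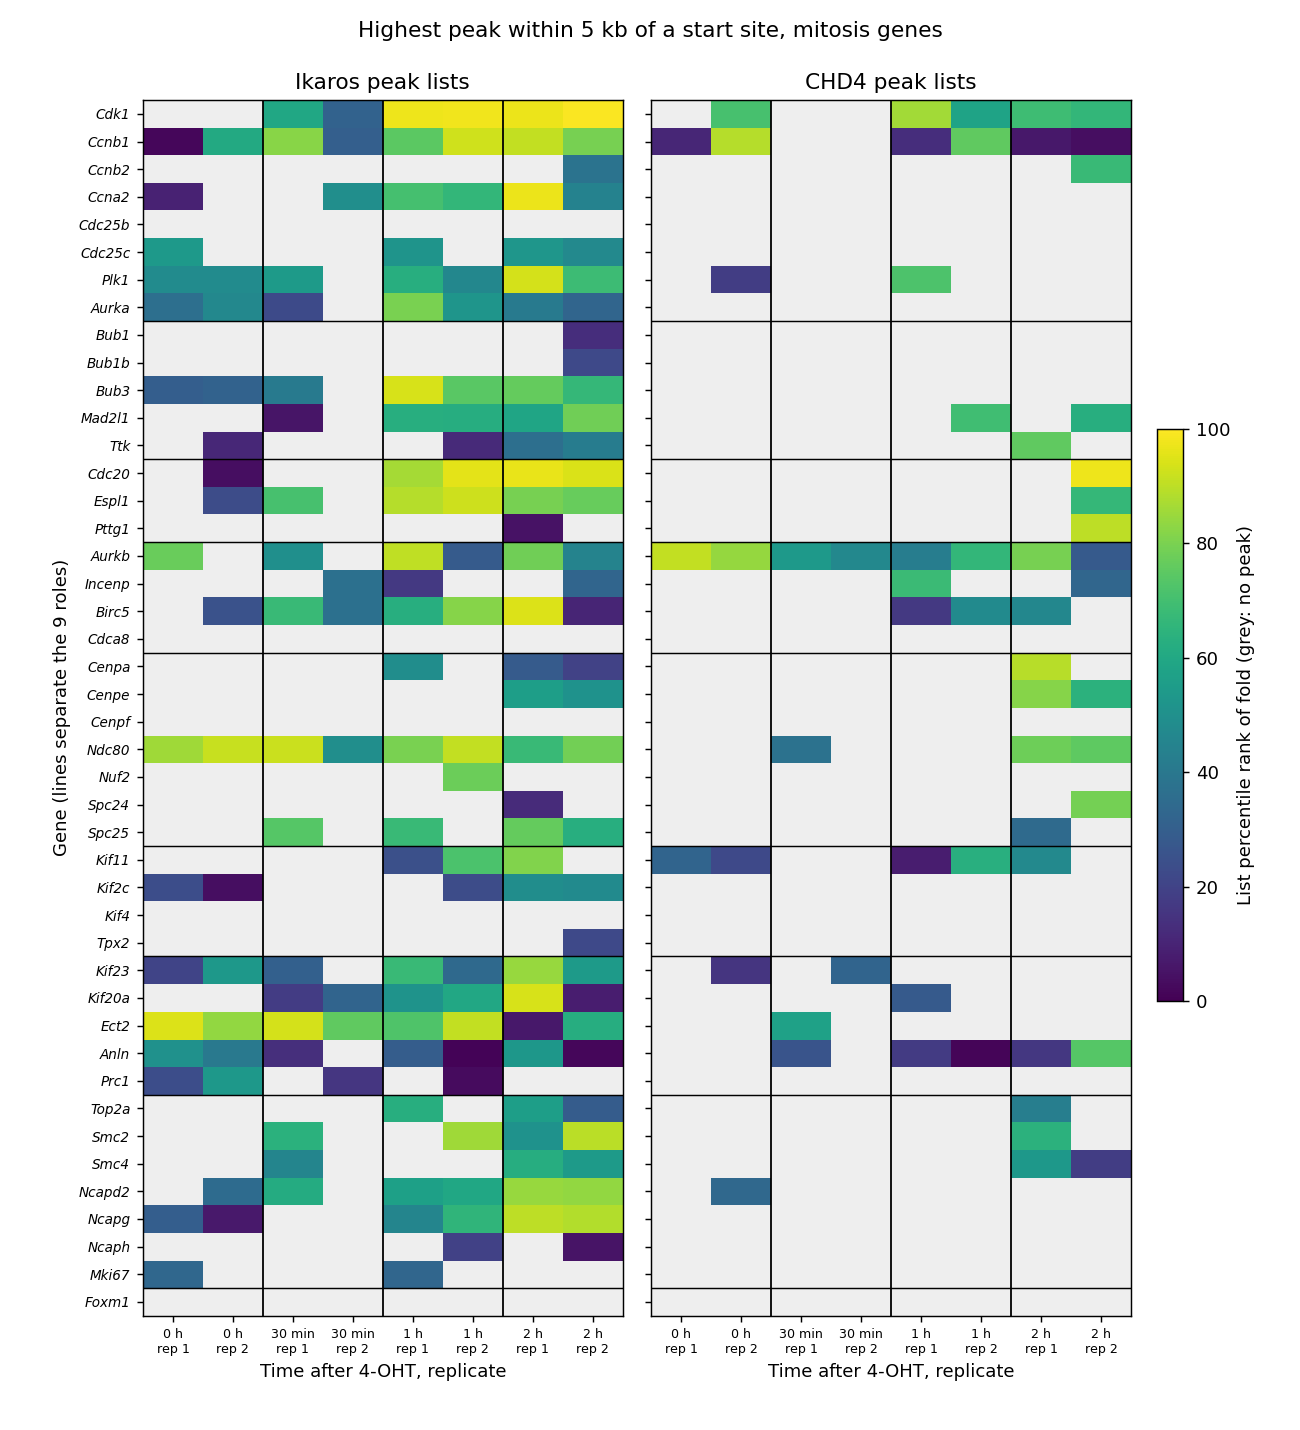
List percentile rank of the highest peak within 5 kb of a TSS, for each of the 44 genes (rows, grouped by role) in each library (columns), with Ikaros on the left and CHD4 on the right. Grey marks a library without a peak. Cdk1, Cdc20, Ncapg and Ncapd2 stood high in both 2 h Ikaros lists, while 5 rows were grey for Ikaros throughout.

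The kinases, cyclins and phosphatases of mitotic entry and exit (8 genes) were called for Ikaros in both lists at 3 genes at 0 h and 6 at 2 h. Of all comparison genes 32.3% were called in both lists at 0 h and 54.4% at 2 h, and no group was tested against these shares. List percentile ranks depend on list length, which differed between times, and over the 1690 genes with an Ikaros peak in all 8 lists the median difference of this rank was 9.17 points at 2 h and 8.64 at 1 h, each minus 0 h. The Ikaros list ranks of single genes include that shift. Cdk1, the kinase that starts mitosis, had no Ikaros peak in either 0 h list. Its list percentile ranks were 59.4 and 31.4 at 30 min, 97.6 and 97.7 at 1 h, and 97.2 and 99.4 at 2 h, with folds over local background of 5.03, 4.24, 10.5, 10.5, 7.79 and 12.2 in the same order. Every treated library thus called it, and the ranks at 1 h and 2 h lay above those at 30 min. The 2 h peaks, at chr10:69352902-69353399 and chr10:69352596-69353473 (mm10), had their summits at -140 and -136 bases from the nearest TSS (negative is upstream), in intergenic sequence inside the printed promoter. No GGGAA stood within 50 bases of either summit. The shorter GGAA, which the authors counted as an Ikaros motif, stood within 50 bases of both.

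Ccnb1, the cyclin partner of Cdk1, was called in all 8 lists. Its Ikaros ranks were 1.9 and 60.6 at 0 h, 82.3 and 30.1 at 30 min, 74.9 and 92.8 at 1 h, and 91 and 79.6 at 2 h. The 2 h values lay above both 0 h values, but the replicates of 0 h and of 30 min were far apart. Among the 1690 genes with an Ikaros peak in all 8 lists, its mean rank was 17 at 0 h and 52.3 at 2 h, a difference of 35.3 ± 19.9 (SE, n = 2 against 2) that did not pass limma's test (adjusted p = 0.451). The 2 h summits lay at -51 and -38 bases from the TSS. Bases around the first summit are shown with GGGAA in capitals, because this promoter holds the core word beside its CCAAT word.
Ccnb1, 2 h replicate 1, chr13:100786571-100786671, minus strand: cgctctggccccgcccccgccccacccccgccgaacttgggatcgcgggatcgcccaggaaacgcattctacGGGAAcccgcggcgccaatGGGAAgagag

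Ccnb2, a second B-type cyclin, was called in 1 library only, 2 h replicate 2, at rank 38.2. Plk1, a kinase of entry and spindle assembly, had ranks of 48.4 and 48.4 at 0 h, 54.3 and no call at 30 min, 62.6 and 46.3 at 1 h, and 93.4 and 68.4 at 2 h. Both 2 h values lay above both 0 h values. Aurka, the centrosome kinase, stood at 36.4 and 46.8 at 0 h, 22.4 in 1 list at 30 min, 79.8 and 52.3 at 1 h, and 41.4 and 32.8 at 2 h. Its 0 h and 2 h values overlapped. One of the 2 h summits lay in the UTR of Cstf1, which starts 146 bases from a TSS of Aurka. Ccna2, the A-type cyclin, was called in 1 list at 0 h (9.65) and 1 at 30 min (49.6). Both lists called it at 1 h (70.5 and 66.2) and at 2 h (97 and 44.4). Cdc25c was called in 1 list at 0 h (53.9), 1 at 1 h (51.7) and both at 2 h (52.7 and 47). Cdc25b, another phosphatase that activates Cdk1, was called in none of the 8 lists.

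Genes of the spindle checkpoint, which holds anaphase until chromosomes are attached, were called in both lists at 1 of 5 at 0 h and 3 of 5 at 2 h (32.3% and 54.4% of comparison genes). Mad2l1, the inhibitor of Cdc20, had no peak at 0 h, a rank of 5.59 in 1 list at 30 min, 62.6 and 62.3 at 1 h and 58.7 and 78.2 at 2 h. Bub3 had ranks of 30 and 31.4 at 0 h and 76.4 and 66.5 at 2 h, and was not among the genes tested, since 1 list of 30 min lacked it. Bub1 and Bub1b were each called in 1 library, 2 h replicate 2, at 13.2 and 22.1. Ttk was called in both 2 h lists, at 36.6 and 41.8, but in peaks that did not overlap, with summits at -270 and -3491 bases from a TSS.

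Of the genes of anaphase control, Cdc20 and Espl1 were called in both 2 h lists. Cdc20, the activator of the anaphase-promoting complex, was called at 0 h in replicate 2 only, at 3.54, and in neither list of 30 min. Its ranks were 86.4 and 95.9 at 1 h and 96.6 and 94.2 at 2 h, far above the 0 h value. The 2 h summits lay at -147 and -66 bases from the TSS, within the printed promoter. No GGGAA stood within 50 bases of them, while GGAA on either strand stood within 50 bases of both. Espl1, the separase, was called in both 2 h lists at 79.5 and 76.8, with summits 3559 and 3151 bases downstream of a TSS, near the start of Pfdn5. Pttg1, the securin that holds separase inactive, was called in 1 library, at 4.69.

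Aurkb, the kinase of the chromosomal passenger complex, was called for Ikaros in 6 lists, with a rank of 77.2 in the 1 list of 0 h that called it and 78.3 and 44.6 at 2 h. The 2 h summits lay at -5432 and -4459 bases from the TSS, farther than those of any other of the 44 genes. Birc5, the survivin subunit, was called in 7 lists, at 94.7 and 10.3 at 2 h. Incenp, the scaffold, was called in 3, and Cdca8 in none.

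Centromere and kinetochore genes were called in both lists at 1 of 7 at 0 h and 4 of 7 at 2 h (32.3% and 54.4% of comparison genes). Cenpe, the kinetochore motor, had no Ikaros peak in any of the 6 earlier lists and ranks of 56.2 and 50.9 at 2 h. Both of its summits had a GGGAA within 50 bases, and are shown in the direction of the gene, where the word reads TTCCC.
Cenpe, 2 h replicate 1, chr3:135212227-135212327, plus strand: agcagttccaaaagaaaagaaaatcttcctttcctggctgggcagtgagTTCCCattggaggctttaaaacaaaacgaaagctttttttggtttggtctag
Cenpe, 2 h replicate 2, chr3:135212100-135212200, plus strand: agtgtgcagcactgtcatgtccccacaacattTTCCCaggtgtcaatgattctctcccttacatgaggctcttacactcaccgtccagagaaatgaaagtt
The centres of these windows lie at -260 and -387 bases from the TSS, so the windows do not overlap.

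Ndc80, the core of the outer kinetochore, was called in all 8 Ikaros lists, with ranks of 85.7 and 91.7 at 0 h, 92.1 and 49.6 at 30 min, 79.8 and 90.9 at 1 h, and 67.9 and 78.9 at 2 h. Both 2 h values were under both 0 h values. The rank among genes tested differed by -44.1 ± 17.2 (2 h minus 0 h, SE) and did not pass limma's test (adjusted p = 0.286). In every list the summit of the highest Ndc80 peak lay in an exon of another gene, Mettl4-ps1. Spc25 was called in 1 list at 30 min (73.8), 1 at 1 h (67.7) and both at 2 h (76.4 and 62.5). Cenpa, the histone H3 of centromeres, was called in 1 list at 1 h (48.9) and at 28.7 and 19.6 at 2 h, in peaks that did not overlap. Nuf2 and Spc24 had 1 call each, and Cenpf had none.

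Of the spindle motors and assembly factors 1 of 4 was called in both lists at 0 h and 1 of 4 at 2 h (32.3% and 54.4% of comparison genes). That gene was Kif2c, a microtubule depolymerase, at 49.2 and 47.9, against 23.5 and 3.54 at 0 h. Kif11, the motor that separates spindle poles, was called in both lists at 1 h (24.5 and 71.8) and in 1 at 2 h (81). Tpx2 had 1 call and Kif4 none.

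Of the cytokinesis genes 4 of 5 were called for Ikaros in both lists at 0 h and 4 of 5 at 2 h (32.3% and 54.4% of comparison genes). Ect2, the exchange factor that activates RhoA at the cleavage plane, had ranks of 94.9 and 83.8 at 0 h, 93.4 and 75.4 at 30 min, 72.3 and 90.9 at 1 h, and 6.58 and 62.2 at 2 h. Both 2 h values were lower than every earlier value. The difference of 2 h from 0 h was -65.3 ± 16.8 (SE) in the rank among genes tested and did not pass limma's test (adjusted p = 0.163). On the scale of log2 fold centred on the median the difference was -1.17 and passed limma's test (adjusted p = 0.0315), as did 75 of all 1690 genes, 58 of them lower and 17 higher. Anln, a scaffold of the contractile ring, had ranks of 50.6 and 40.6 at 0 h, and its 2 h ranks of 52.9 and 1.67 fell on either side of them. Kif20a had no peak at 0 h and ranks of 17.7 and 32.3 at 30 min, 51.3 and 60.1 at 1 h, and 94.1 and 8.03 at 2 h. A TSS of Brd8 lies 12 bases from one of Kif20a. Kif23 was called in both lists at 0 h (20.4 and 53.4) and 2 h (84.6 and 54.3). Prc1, which bundles midzone microtubules, was called at 23.5 and 53.4 at 0 h, in 1 list at 30 min (15.9) and 1 at 1 h (3.1), and in neither list of 2 h. Both of its 0 h summits lay in exons of Rccd1.

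Condensin and chromosome structure genes were called in both lists at 1 of 7 at 0 h and 5 of 7 at 2 h (32.3% and 54.4% of comparison genes). Ncapg, a condensin I subunit, had ranks of 30 and 6.99 at 0 h, 45.6 and 65.6 at 1 h, and 89.9 and 88.5 at 2 h, with no call at 30 min. Ncapd2 was called in 1 list at 0 h (34.9), at another site (chr6:125166303-125166654) than in the later lists. It was called in 1 list at 30 min (61.6), at 56.8 and 59.5 at 1 h, and at 84.6 and 83.8 at 2 h, with both 2 h summits in exons of Mrpl51. Smc2, an ATPase of both condensins, was called in 1 list at 30 min (64) and 1 at 1 h (85.9), and at 51 and 89.6 at 2 h, with summits within 4 bases of a TSS. Smc4, its partner, was called in 1 list at 30 min (45.4) and at 62.3 and 54.5 at 2 h, with both summits in the UTR of Ift80. Top2a, the topoisomerase that untangles chromatids, was called in 1 list of 1 h (62.6) and at 56.2 and 29.1 at 2 h. Mki67, the coat protein of mitotic chromosomes, was called in 1 list of 0 h (33.3) and 1 of 1 h (32.9), and in neither of 2 h. Foxm1, the transcription factor that works with MuvB at CHR promoters, had no Ikaros and no CHD4 peak in any list.

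Peaks within 1 kb of a TSS were called for Ikaros at 30 and 30 of the 44 genes in the 2 h libraries, beside 58.5% and 60.8% of comparison genes. Of 30 and 33 genes called, 28 and 30 had the summit of the highest peak within 1000 bases of a TSS, and 16 and 18 within 250 bases. The median peak widths were 554 and 465 bases. GGGAA lay within 50 bases of the summit at 9 of 30 and 11 of 33 mitosis genes (30% and 33.3%), against 39.8% and 43.6% of comparison genes, taking the highest peak of each gene called. At 0 h it was 33.3% and 37.5% at mitosis genes against 55.5% and 56.1%. The share was lower at mitosis genes in 8 of 8 libraries, with 40% (10 of 25 summits) against 42.8% in the closest, and it was not tested.

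**Figure D4:**
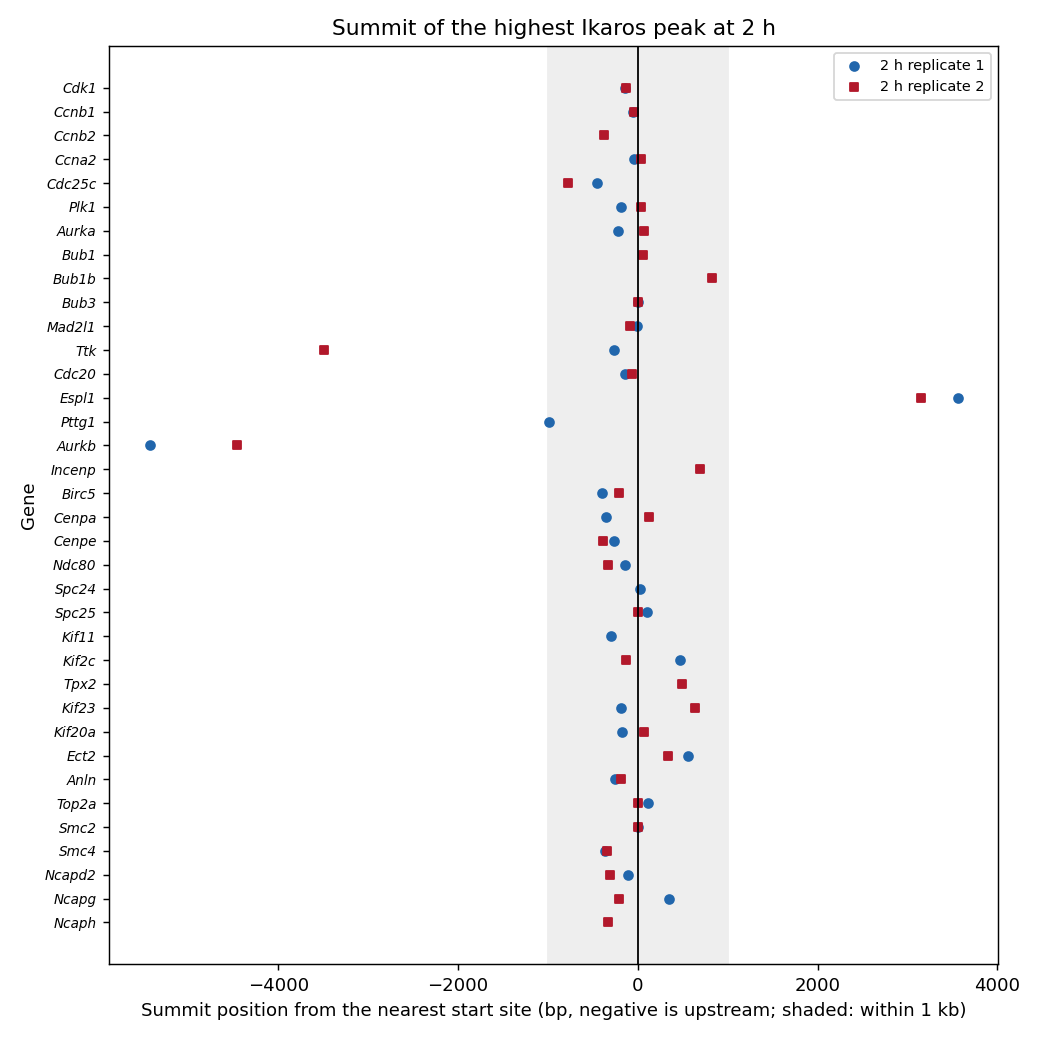
Distance in bases from the summit of the highest Ikaros peak to the nearest TSS, for each mitosis gene called in a 2 h library (negative is upstream, and the shaded band is within 1 kb). Of the genes called in replicates 1 and 2, 28 and 30 lie in the band, and Aurkb, Espl1 and 1 point of Ttk lie outside it.

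CHD4 was called at few mitosis genes. The counts were 3 and 7 of 44 at 0 h (9.53% and 24.4% of comparison genes), 4 and 2 at 30 min (18.3% and 13.9%), 9 and 7 at 1 h (27.1% and 23.8%), and 14 and 14 at 2 h (23.4% and 42.7%). The share of mitosis genes was under that of the comparison genes in 7 of the 8 libraries and 8.4 points over it in 2 h replicate 1, while 2 h replicate 2, with the longest list, put it 10.9 points under. In both lists CHD4 was called at 3 genes at 0 h (7.97% of comparison genes), 1 at 30 min (9.02%), 6 at 1 h (15.1%) and 7 at 2 h (18.1%). At 30 min 0 genes had been gained (1.1%) and 2 lost, Ccnb1 and Kif11 (1.2%), and at 1 h 2 had been gained, Birc5 and Anln (3.43%), and 0 lost (0.671%). The 4 genes gained at 2 h (5.71% of comparison genes) were Cenpe, Ndc80, Anln and Smc4, and none was lost (0.506% of comparison genes). The highest peaks of the 2 h replicates overlapped at Cdk1, Aurkb, Cenpe and Ndc80 and lay apart at Ccnb1, Anln and Smc4. With a −log10 q of at least 3, no mitosis gene was called in both 2 h lists (0.66% of comparison genes). Either 2 h library alone called 14, and 11 genes were gained without 2 h replicate 1 (25%, against 22.1% of comparison genes) and 10 without 2 h replicate 2 (22.7% against 9.87%). With the libraries of replicate 1 left out at both times, 4 genes were lost (9.09% against 4.83%).

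Where CHD4 was called at 2 h, Ikaros mostly was too. Of the 14 genes with CHD4 in 2 h replicate 1, 14 had Ikaros in the library of the same number, and of the 14 in replicate 2, 12 had it (100% and 85.7%, against 90.4% and 86.4% of comparison genes with CHD4). Read the other way, 46.7% and 36.4% of the mitosis genes with Ikaros had CHD4, against 33.1% and 55.6% of comparison genes, so the direction of the difference turned between replicates. At 0 h Ikaros was called at 2 of 3 and 4 of 7 of the genes with CHD4 (80.6% and 73.4% of comparison genes with CHD4), at 30 min at 4 of 4 and 0 of 2 (86.5% and 68.4%), and at 1 h at 9 of 9 and 7 of 7 (89.6% and 92.1%).

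Cdk1 had CHD4 ranks of 70.8 in 1 list of 0 h, 86 and 58.2 at 1 h, and 68.8 and 66.2 at 2 h, with no call at 30 min. It was called at chr10:69352919-69353276 and chr10:69352734-69353631 at 2 h, which overlap the Ikaros peaks of that time. Ccnb1 was called at 10.7 and 88.9 at 0 h, 13.1 and 75.4 at 1 h and 6.54 and 3.53 at 2 h, so the replicates of 0 h and of 1 h were far apart and both 2 h values were low. Over the 373 genes with a CHD4 peak in all 8 lists, the median difference of this list rank was 5.57 points, 2 h minus 0 h. Aurkb was the 1 mitosis gene with CHD4 in all 8 lists, at 90.8 and 84 at 0 h, 54.1 and 46.7 at 30 min, 42.3 and 66.2 at 1 h, and 79.5 and 28.3 at 2 h. Its rank among the 373 genes tested differed by -43.8 ± 19.2 (2 h minus 0 h, SE) and did not pass limma's test (adjusted p = 0.587).

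Among the kinetochore genes, Cenpe had CHD4 peaks in both 2 h lists (81.8 and 64.3) and in no earlier list, as did Ikaros in its own libraries of these times. Ndc80 was called at 77.8 and 75.1 at 2 h and at 37.5 in 1 list of 30 min. Smc4 was called only at 2 h, at 53.5 and 18.2. Anln was called in 1 list at 30 min (26), at 17.2 and 1.47 at 1 h, and at 16.2 and 73.6 at 2 h. Kif11 was called in both lists at 0 h (32.4 and 22.2) and 1 h (7.91 and 62.9), and in 1 list at 2 h (47.2). Cdc20, next after Cdk1 in mean Ikaros rank at 2 h, had a single CHD4 call, in 2 h replicate 2, at 97.5. The longest list also held the only CHD4 calls of Ccnb2, Espl1, Pttg1 and Spc24. Of the further lists, 19 of 117 mitosis genes (16.2%) and 5 of 49 replication genes (10.2%) were called in both 2 h lists, beside 18.1% of comparison genes, the 5 being Cdc6, Cdt1, Orc5, Pold1 and Chaf1a.

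H3K27ac marked every mitosis gene in every library, 44 of 44 in all 8 lists, beside 97.2% to 100% of comparison genes. Calls at 0 h were the rule for the comparison genes, so gains could not occur, and losses were 0 of 44 at 30 min (0.0929% of comparison genes), 1 h (0.722%) and 2 h (1.1%). The list percentile rank of the highest peak had a median of 88.4 and 87.6 over the 44 genes at 0 h and 89.9 and 89.1 at 2 h, and the lowest single value of any library was 32.5 (Kif4, 1 h replicate 2). Medians of the comparison genes were 76.2 and 73 at 0 h and 82.8 and 77.9 at 2 h. The mitosis genes stood higher in 8 of 8 libraries. Ncapd2, beside the start of Mrpl51, ranged from 97.7 to 99.9 over the 8 libraries, Smc4 from 97 to 99.2, Incenp from 95.8 to 99.5 and Kif20a from 93.3 to 99.8. Lower ranges were those of Kif4 at 32.5 to 85.7, Bub1 at 34.4 to 78.1, Cenpf at 34.9 to 81.9, Cdc25b at 39.7 to 68.6 and Cdc25c at 45.3 to 73.2.

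Among the 9890 genes tested, no gene passed limma's test at 2 h (0% called, smallest adjusted p = 0.0738), and 1180 had an unadjusted p under 0.05. That was 11.9% of all genes and 5 of the 44, Kif23, Ttk, Aurkb, Ccnb1 and Ndc80. The median difference of the 44 was -3.44 points at 2 h minus 0 h, beside 0.126 over all genes, with 28 lower and 16 higher. At 1 h it was -5.37 beside 0.56, with 29 lower and 9 of 44 at an unadjusted p under 0.05 (10.2% of all genes), and at 30 min 0.191 beside 0.296, with 22 lower and 22 higher. On the percentile rank within the whole list the median at 2 h was 0.599 beside 3.7 over all genes, so its sign turned while it stayed under that of all genes.

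Ndc80 had H3K27ac list ranks of 84.8 and 81.8 at 0 h, 96.4 and 98.9 at 30 min, 97.6 and 98.3 at 1 h, and 99 and 98.4 at 2 h, so every treated library lay above both untreated ones. The difference in rank among genes tested was 31.1 ± 5.93 (2 h minus 0 h, SE) and did not pass limma's test (adjusted p = 0.147). Its Ikaros ranks, given above, were lower at 2 h than at 0 h. Ttk had ranks of 56.2 and 58.5 at 0 h and 86.4 and 83.8 at 2 h, a difference of 37.7 ± 7.12 that did not pass limma's test (adjusted p = 0.147). Its highest peak had its summit at -3235 and -270 bases from the TSS in the 0 h replicates and at -3045 and -3212 at 2 h, and with peaks within 1 kb the difference was -4.89.

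Kif23, a motor of the central spindle, had its highest peak near 1 TSS in the 0 h and 2 h libraries and at another site in replicate 1 of 30 min and of 1 h. It had ranks of 81.2 and 84.9 at 0 h and 74.2 and 63.4 at 2 h (difference -35.4 ± 11.7, limma adjusted p = 0.315). Aurkb stood at 97.4 and 99 at 0 h and 93.3 and 90.3 at 2 h (-18.6 ± 6.23, limma adjusted p = 0.318). Ccnb1 stood at 97.9 and 98.6 at 0 h and 93.3 and 93.9 at 2 h (-14.5 ± 6.04, limma adjusted p = 0.411). In each of the 3, both 2 h values were under both 0 h values, and none passed the adjustment over all genes.

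Cdk1, with the highest mean Ikaros rank of the set at 2 h, had H3K27ac ranks of 95.6 and 96.4 at 0 h, 90 and 92.8 at 30 min, 94.9 and 93.3 at 1 h, and 90.2 and 94.6 at 2 h. All 6 treated libraries lay under both untreated ones. The difference in rank among genes tested was -13.2 ± 7.86 (2 h minus 0 h, SE) and did not pass limma's test (adjusted p = 0.569). Cdc20 stood at 88.1 and 92.8 at 0 h and 86.9 and 89.2 at 2 h, groups that overlap. Top2a stood at 89 and 95 at 0 h and 96.2 and 92 at 2 h, also overlapping. Mki67 and Foxm1, without Ikaros at 2 h, stood at 94.5 and 95.4 and at 88.3 and 93.3 at 0 h, and at 89.3 and 91.3 and at 89.9 and 68.2 at 2 h, groups that overlap for Foxm1 and not for Mki67. Bub1 stood at 70.7 and 34.4 at 0 h and 37.9 and 48.8 at 2 h, so its replicates of 0 h were farther apart than the times. Ccnb2, Plk1 and Aurka overlapped between 0 h and 2 h as well, at 89.9 and 92, 88.5 and 89.2, and 95.6 and 97.8 at 2 h.

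**Figure D5:**
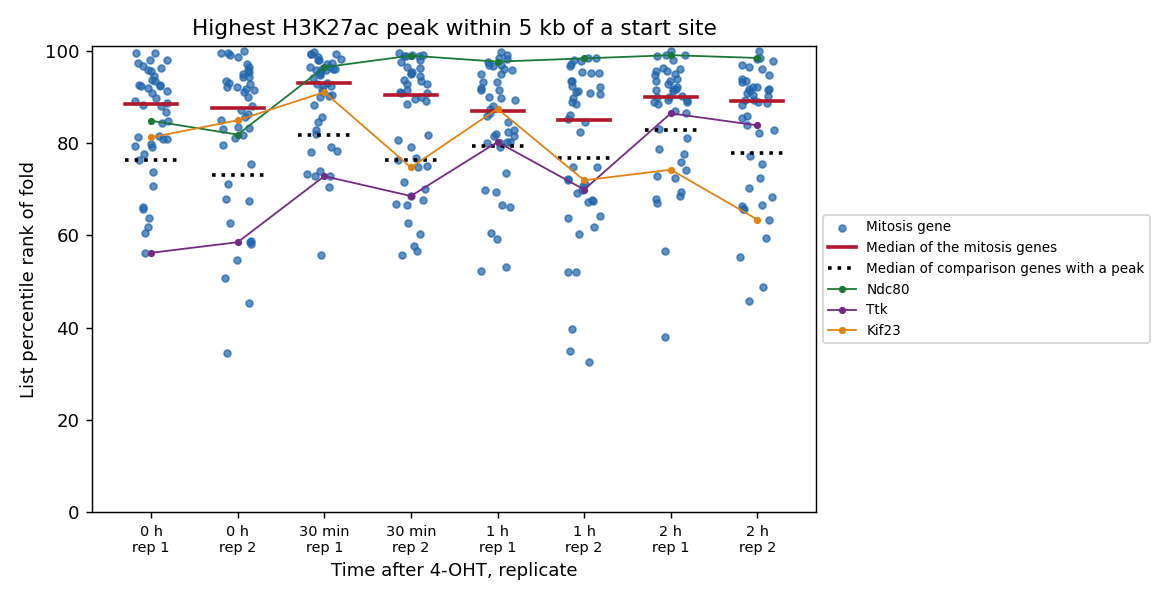
List percentile rank of the highest H3K27ac peak within 5 kb of a TSS, for each of the 44 genes (points) in each library, with the median of the 44 (red bar) and of comparison genes with a peak (dotted bar). Lines follow Ndc80, Ttk and Kif23. The red bar lies above the dotted one in all 8 libraries.

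For Ikaros and CHD4 the test across genes covered few of the set, because a peak in all 8 lists was needed. Of 1690 Ikaros genes, 3 were members (Ccnb1, Ndc80 and Ect2), and of 373 CHD4 genes 1 was (Aurkb). At 2 h no gene passed limma's test for either (0% called, smallest adjusted p of 0.0763 and 0.136), with 247 Ikaros genes (14.6%) and 33 CHD4 genes (8.85%) at an unadjusted p under 0.05, among them Ndc80 and Ect2 for Ikaros.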

How the data were processed

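Deposited MACS2 peak lists of 24 ChIP-seq libraries were used, 1 per library. Per the labels and methods, the authors aligned 41-base read pairs to mm10 with Bowtie2 2.4.2, processed them with Picard 2.23.7 and called peaks with MACS2 2.2.7.1 (broad mode for CHD4). These versions come from the submitters' processing notes. Settings for 30 min, and whether a blacklist (named for signal tracks) was applied to the peak lists, were not given in the sources used here. The fold enrichment (a ratio) of each peak was deposited by the authors and ranks peaks within a list. The deposited −log10 p and −log10 q filtered peaks in alternatives and, with the fold, gave depth (99.8% to 100% of pileups were whole within 0.05). The deposited display score, made by the authors' peak caller, was not used. Depth of CHD4 libraries is unknown. The lists hold no counts, so levels were compared by rank.

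The members and lists were chosen with earlier results of these data known. Calls and ranks used GENCODE M21 (mm10), all TSSs and a 5 kb limit. limma 3.58.1 (R 4.3.3, tested on simulated data) fitted time as a factor to the percentile rank of the highest fold among genes with a peak in all 8 lists of a target, with Benjamini-Hochberg adjustment over all of them at 0.05. Replicate numbers come from the titles. Words and sequences came from RefSeq windows and the GRCm38.p6 genome. Genes were named by rule where they were gained or lost or among the 5 with the highest mean 2 h rank for Ikaros and CHD4, together with Cdk1, Ccnb1, Ccnb2, Plk1, Aurka, Bub1, Top2a, Foxm1 and Mki67. Genes past an unadjusted p of 0.05 and the other genes named were chosen after their values were seen.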

Additional observations from a re-analysis of the deposited data

How the results depend on the processing

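Calls move with list length. In lists of equal size, Ikaros was called in both 2 h lists at 9 mitosis genes in place of 27, gained at 5 in place of 9 and lost at 0 in place of 1 (22.5%, 5.55% and 3.25% of comparison genes), and CHD4 was called at 2 in place of 7, gained at 2 in place of 4 and lost at 1 in place of 0 (4.69%, 1.31% and 1.33%). A −log10 q of at least 3 left CHD4 called and gained at 0 genes (0.66% and 0.33%), and a fold of at least 3 left it called at 3, gained at 2 and lost at 1 (13.1%, 3.57% and 0.846%). Leaving out the 13 genes with a neighbouring start within 5 kb removed the lost Ikaros gene (0). The limits of 1 kb and 10 kb, TSSs of protein-coding transcripts and the other filters moved no other count by over 1.5 times, and the H3K27ac counts stayed at 0.

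Leaving out 1 replicate or library, the Ikaros counts ranged from 30 to 33 called (64.1% to 66.3% of comparison genes), 12 to 18 gained (18.7% to 28.5%) and 1 to 2 lost (3.67% to 4.31%), and the CHD4 counts from 14 to 14 called (23.4% to 42.7%), 4 to 11 gained (6.31% to 23.2%) and 0 to 4 lost (3.06% to 4.83%). Ikaros gains were 14 without 0 h replicate 2 and 15 without 2 h replicate 1, and CHD4 gains 11 and 10 without 2 h replicates 1 and 2; these library by library counts were added after the data were seen.

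The rank test at 2 h called 0 genes for each target. With the percentile rank within the whole list it called 16 genes for Ikaros and 1 for CHD4, with the centred log2 fold 75 for Ikaros (17 higher and 58 lower, Ect2 among these), 10 for CHD4 and 4 for H3K27ac, and with peaks within 1 kb 3 for H3K27ac. The H3K27ac difference of Ttk turned to -4.89 within 1 kb. The cause of these differences was not tested. With the replicate number as a block 0 genes were called for each target. Correlations of same-numbered deviations in rank ranged from -0.059 to 0.0864 over the pairs of times. Ranks drop effects common to a whole library, so these values cannot show whether libraries of the same number shared a culture. Counting each word once per gene in place of once per window, also added after the data were seen, gave CCAAT in 77.1%, a CHR word in 80%, both in 71.4% and GGGAA in 54.3%. A threshold call in bulk chromatin gives no occupancy, the CHD4 depth is unknown, and 2 libraries per time limit every comparison.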
